A study of Mus musculus with 4 samples.

Results

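The 4 genes of the MEF2 transcription factor family, Mef2a, Mef2b, Mef2c and Mef2d, were taken by symbol from the 49585 genes counted, and 3 of them had enough fragments to be tested among 15886 genes. Stranded RNA-seq libraries were made from C2C12, a myoblast line of strain C3H mice that fuses into myotubes when serum is withdrawn. Controls carried the empty retroviral vector pLXSN, and the other group carried the same vector expressing C/EBPβ, a leucine zipper transcription factor that is better known from fat cell differentiation. Both groups were pools rather than clones, selected for 7 days in G418 at 1200 µg/ml. Both proliferated for 2 days in 10% serum, reached 90% confluency and were then differentiated for 2 days in 2% serum. Each group held 2 libraries. Separate cultures are not stated in the labels, and the p-values rest on library-to-library spread that may be technical. No group of unmanipulated or undifferentiated cells was part of the comparison.

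MEF2 proteins bind an A/T-rich DNA element through a MADS box, a DNA-binding fold shared with serum response factor, and an adjacent MEF2 domain. In skeletal muscle they act with the bHLH factors MyoD and myogenin to switch on genes of the contractile apparatus and of metabolism. Class IIa histone deacetylases repress them, whereas p38 kinases, calcium-dependent kinases and the phosphatase calcineurin promote MEF2 activity. Mef2a and Mef2d are present in many tissues, Mef2c is enriched in muscle, brain, endothelium and some immune cells, and Mef2b is best known from germinal centre B cells.

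The libraries held 36461091 to 51537847 fragments assigned to genes. Cebpb, the overexpressed gene, stood at 42.7 and 41.3 CPM in the controls and at 502 and 442 CPM in the overexpressing cells. CPM here means a gene's fragments relative to the library total after scaling. Markers of myoblasts and myotubes were abundant in every library, and all 8 fell, against 20.9% of all genes tested. Their summed level was 16656 and 18513 CPM in the controls and 4922 and 7513 CPM with C/EBPβ. The muscle markers therefore moved beside the MEF2 genes, and their part in the results was not tested. In bulk RNA, fewer differentiated cells and less RNA per cell cannot be told apart.

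Mef2c, Mef2a and Mef2d were all lower with C/EBPβ, and Mef2c fell farthest. In this comparison 20.9% of all genes tested fell and 22.4% rose, so that a call alone does not set these 3 genes apart. By size, 7.5% of genes fell at least 2-fold, as Mef2a and Mef2c did, and 9.15% rose at least 2-fold. A share of 1.16% fell by at least as much as Mef2c. In 36.7% of genes tested, both overexpressing libraries lay below both controls.

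**Figure D1:**
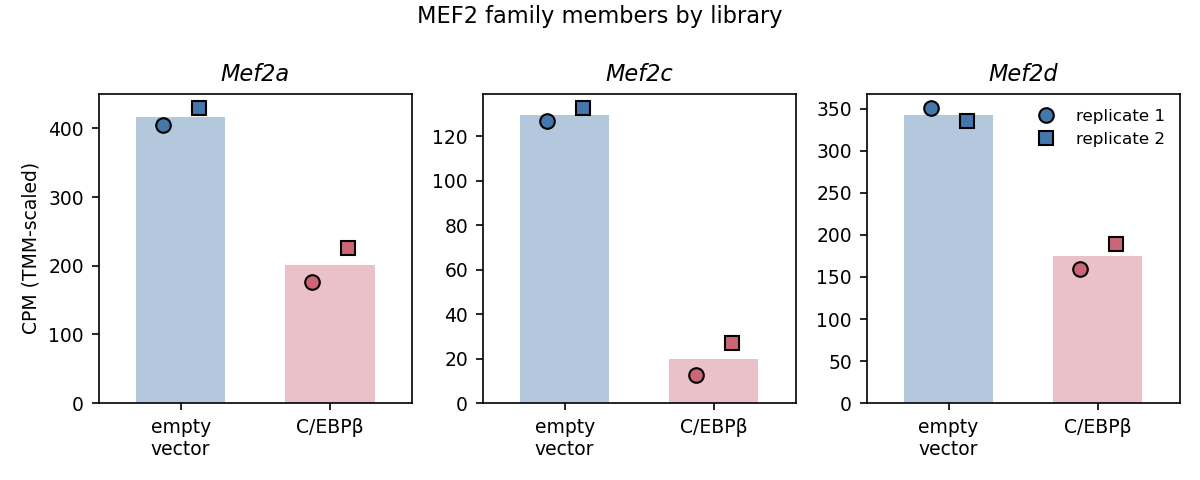
CPM of Mef2a, Mef2c and Mef2d, one panel per gene with its own vertical scale from 0. Bars are means of 2 libraries and points are the libraries (circle, replicate 1; square, replicate 2); in each panel both overexpressing libraries lie below both controls.

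Mef2c, the member most closely tied to muscle differentiation, had 5655 and 6706 fragments in the controls and 650 and 992 with C/EBPβ. Scaled for depth, these were 126.9 and 132.6 CPM against 12.4 and 27.1 CPM. The groups did not overlap, the controls lay close together, and the overexpressing libraries differed from each other more than 2-fold. The mean fell from 130 ± 4.05 to 19.8 ± 10.4 CPM (SD, n = 2 each), a 6.56-fold difference. Its log2 fold change was -2.72 (SE 0.40, 95% confidence interval -3.80 to -1.65), with an adjusted p of 0.00770 in edgeR's quasi-likelihood test. The call was lost without control replicate 1 (log2 fold change -2.75, adjusted p = 0.0935) and without control replicate 2 (-2.69, adjusted p = 0.134), although the estimate hardly moved. Without overexpressing replicate 1 the log2 fold change was -2.26, and without replicate 2 it was -3.40. The gene (ENSMUSG00000005583.16) spans 83504034 to 83667080 of chromosome 13 in GRCm38, plus strand.

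Mef2a, the broadly expressed member with the most fragments, had 404.6 and 429.4 CPM in the controls and 177.1 and 225.6 CPM with C/EBPβ. No overexpressing library reached either control. The mean fell from 417 ± 17.5 to 201 ± 34.3 CPM (SD, n = 2 each), 2.07-fold. Its log2 fold change was -1.05 (SE 0.13, 95% confidence interval -1.35 to -0.76, adjusted p = 0.000607). Its log2 fold change was at rank 1162 from the lowest of all genes tested, against rank 185 for Mef2c and 1305 for Mef2d. The gene (ENSMUSG00000030557.17) spans 67231163 to 67372858 of chromosome 7, minus strand. Of its exon bases, 2.06% lie opposite Lysmd4 on the other strand, and the counting used strand.

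Mef2d, the other broadly expressed member, moved by nearly the same amount. It stood at 350.5 and 335.2 CPM in the controls and at 159.9 and 189.2 CPM with C/EBPβ, again without overlap. The mean fell from 343 ± 10.9 to 175 ± 20.7 CPM (SD, n = 2 each), 1.96-fold. Its log2 fold change was -0.97 (SE 0.11, 95% confidence interval -1.22 to -0.73, adjusted p = 0.000372). The gene (ENSMUSG00000001419.17) spans 88142372 to 88172086 of chromosome 3, plus strand, and 8.87% of its exon bases lie opposite the gene 1700113A16Rik. Unlike Mef2c, both Mef2a and Mef2d kept their calls when any one library was left out.

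**Figure D2:**
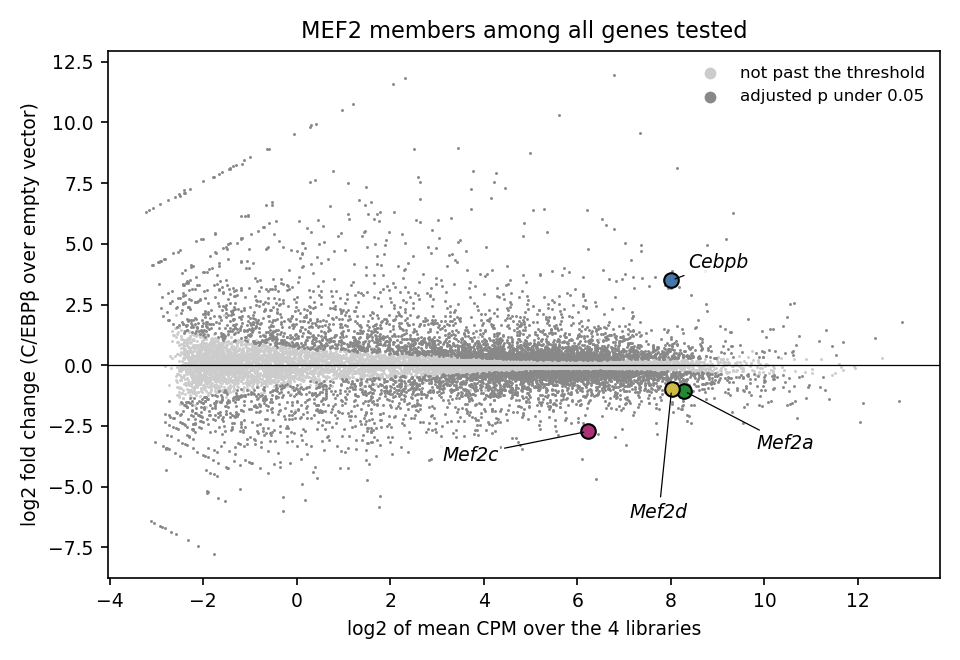
Log2 fold change of every gene tested against the log2 of its mean CPM over the 4 libraries, with the 3 tested MEF2 genes and Cebpb marked. Mef2a and Mef2d lie side by side near a log2 fold change of -1, Mef2c lies lower at -2.72, and dark grey points are the 43.3% of genes past the threshold of 0.05.

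Mef2b could not be read from these counts. It had 1 and 0 fragments in the controls and 1 and 2 with C/EBPβ, below the minimum for testing. Of its 1342 exon bases, 1275 (95.0%) lie under exons of Borcs8 on the same strand in the annotation used for counting. Fragments that overlap both genes were assigned to neither, so only 67 bases could give Mef2b a fragment of its own. The gene (ENSMUSG00000079033.9) spans 70152778 to 70167488 of chromosome 8, plus strand. Borcs8, a subunit of the lysosome-positioning complex BORC, had 684 and 772 fragments in the controls and 1037 and 696 with C/EBPβ. Its counts carry the same limit from the shared exons. They are not scaled for depth, and the 696 come from the library with the fewest assigned fragments. B cell markers, which would accompany Mef2b in its best known setting, summed to 3.40 CPM or less in every library, with no fragment of Ms4a1.

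In the authors' deposited table, the log2 fold change was -2.77 (SE 0.21) for Mef2c, -1.12 (SE 0.096) for Mef2a and -1.04 (SE 0.11) for Mef2d. All 3 had smaller adjusted p-values in the authors' deposited table, of 2.80e-37, 7.96e-30 and 1.77e-20 in the same order, than in the test used here.

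To compare the members with each other, counts were divided by the total exon length of each gene and expressed as FPKM, which is CPM per kilobase. Mef2d then had the highest level, at 58.6 and 56.0 FPKM in the controls and 26.7 and 31.6 FPKM with C/EBPβ. Mef2a followed at 27.6 and 29.2 FPKM against 12.1 and 15.4 FPKM. Mef2c was the lowest of the 3 tested members, at 8.07 and 8.44 FPKM against 0.792 and 1.73 FPKM. Within each library the order of these 3 was Mef2d, Mef2a, Mef2c, and neighbouring genes differed by more than the spread within either group. The order of the top pair depends on the length used, because the counted exons of Mef2a span 14681 bases against 5985 for Mef2d. With the longest annotated transcript of each gene, Mef2a made up 47.2% of the family in the controls and Mef2d 39.8%, and Mef2c remained lowest at 13.0%.

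**Figure D3:**
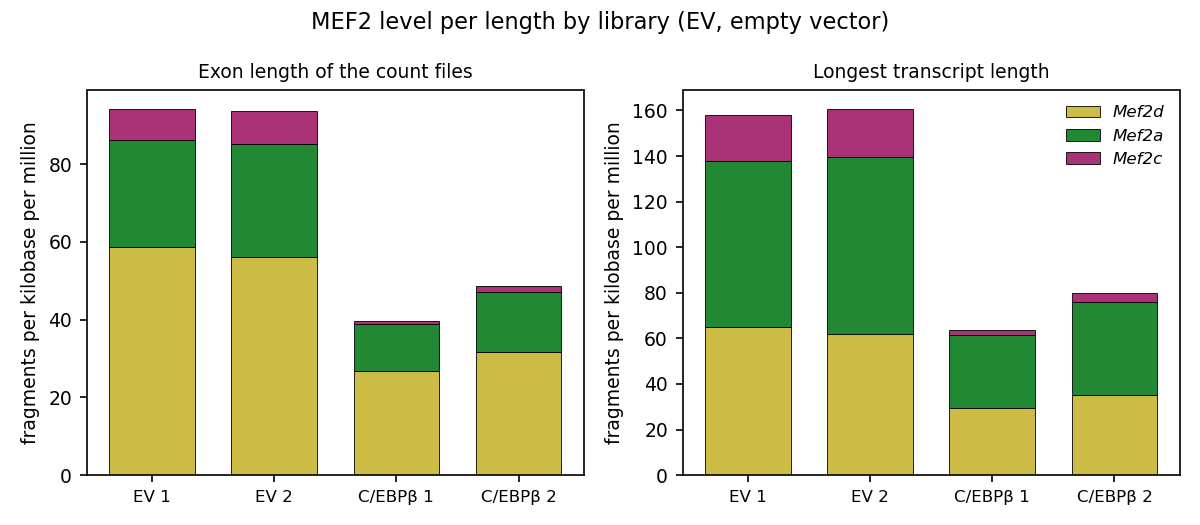
Stacked FPKM of Mef2d, Mef2a and Mef2c in each library, with the counted exon length as divisor on the left and the longest transcript on the right (the vertical scales differ). On the left the stacks reach 94.2 and 93.7 FPKM in the controls and 39.6 and 48.7 FPKM with C/EBPβ; Mef2d is the largest block on the left and Mef2a the largest on the right.

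The summed family level was 94.0 ± 0.378 FPKM in the controls and 44.2 ± 6.48 FPKM with C/EBPβ (SD, n = 2 each), 2.13-fold lower. Mef2b enters this sum at 0.0408 FPKM or less, a level its shared exons may understate, so the shares describe the 3 tested members. The makeup of the sum differed as well. Mef2c made up 8.57% and 9.01% of the sum in the controls and 2.00% and 3.54% with C/EBPβ, with no overlap. The Mef2d share was 61.0 ± 1.69% and 66.2 ± 1.86%, also without overlap. The Mef2a share was 30.2 ± 1.39% and 31.0 ± 0.741%, and its libraries overlapped between the groups. With the longest transcripts the Mef2c share with C/EBPβ was 4.26%, beside 50.6% for Mef2a and 45.1% for Mef2d. By that length the Mef2a libraries did not overlap, at 46.2% and 48.2% in the controls and 50.3% and 50.8% with C/EBPβ.

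Ratios within a library need no scaling between libraries. The log2 ratio of Mef2c to Mef2a per length was -1.77 and -1.79 in the controls and -3.93 and -3.15 with C/EBPβ, a mean difference of -1.76. Against Mef2d, the Mef2c ratio was -2.86 and -2.73 in the controls and -5.08 and -4.19 with C/EBPβ, a mean difference of -1.84. The ratio of Mef2a to Mef2d was -1.09 and -0.94 in the controls and -1.15 and -1.04 with C/EBPβ, and these ranges overlap. Mef2c was thus lower relative to both relatives, 3.38-fold against Mef2a and 3.58-fold against Mef2d. These ratios were described and not tested. The smallest p an exact permutation test of 2 against 2 libraries can give is 0.333.

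The overexpressing libraries differed more in MEF2 genes than the controls did. Mef2c was higher in overexpressing replicate 2 than in replicate 1 by 1.12 on the log2 scale, and 0.314% of the 9539 genes averaging 10 CPM or more were at least as far apart. The same difference was 0.35 for Mef2a and 0.24 for Mef2d, sizes that 6.77% and 13.9% of those genes reached. Between the controls the difference was 0.06 for Mef2c, 0.09 for Mef2a and -0.06 for Mef2d. Overexpressing replicate 2 also had less Cebpb, at 442 against 502 CPM, and a larger summed level of muscle markers, at 7513 against 4922 CPM. Whether these values bear on the MEF2 difference was not tested.

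Sequences at the annotated starts are shown for Mef2a, the only member with a match to the MEF2 core there, and for Mef2c, the member that fell farthest. They come from RefSeq on GRCm38.p6 and were found for all 4 members, with windows from 250 bases before to 50 bases after each start. Each window was searched on both strands for the MEF2 core (CTA and TAG with any 4 bases between them), the E-box CANNTG bound by bHLH factors, and a C/EBP core (TTGC and AA with any 2 bases between them). No matches overlapped in the member windows. A match describes letters in the window, not a bound site. The Mef2a site is chr7:67372843-67372868 on the minus strand, written 5′ to 3′ with the MEF2 core in capitals, and the core begins 2 bases before the start.
Mef2a: cctgactcCTAAAAATAGccccggtg
The Mef2c stretch is the 250 bases before its first annotated start, chr13:83503784-83504033 on the plus strand, with E-boxes in capitals.
Mef2c: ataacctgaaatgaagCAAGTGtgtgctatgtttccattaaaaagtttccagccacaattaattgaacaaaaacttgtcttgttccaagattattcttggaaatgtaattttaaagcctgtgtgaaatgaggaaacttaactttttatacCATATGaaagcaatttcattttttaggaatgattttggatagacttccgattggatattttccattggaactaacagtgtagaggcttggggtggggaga

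The MEF2 core of Mef2a is found in 3.69% of 32851 promoter windows of the same length. E-boxes are in 72.3% of windows, so the 2 before the first Mef2c start are not unusual. Of the other annotated Mef2c starts, the second had none of the 3 motifs and the third had 1 E-box. Mef2b had 2 E-boxes, and the Mef2d window had none of the 3 motifs. The C/EBP core, present in 10.8% of windows, was in none of the member windows, which says only that these letters are absent there. The upstream sequences differ in base composition, from 33.6% G and C at the first Mef2c start to 61.6% at Mef2a and 73.2% at Mef2d.

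The genes most like each member over the 4 libraries were taken from 9349 genes by the root mean square difference of their log2 CPM deviations from their own mean. Mef2c had a single very close neighbour, Casq1, the calcium-storage protein of fast muscle (0.0244), and then Anxa8 (0.0596), Als2cl (0.0683), Tas1r1 (0.0762) and Fam167a (0.0822). For Mef2d they were Jph2, which ties the surface membrane to the sarcoplasmic reticulum (0.0182), Panx1, a membrane channel (0.0204), Phldb3 (0.0242), the receptor kinase Erbb2 (0.0283) and Nceh1 (0.0309). For Mef2a they were Klhl13 (0.0215), Traf4 (0.0228), the ubiquitin ligase subunit Fbxw7 (0.0232), the RNA-binding protein Msi2 (0.0258) and Flrt2 (0.0271). With 4 libraries that mostly separate into 2 groups, these values describe likeness in size of change and in the gap between the overexpressing libraries.

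**Figure D4:**
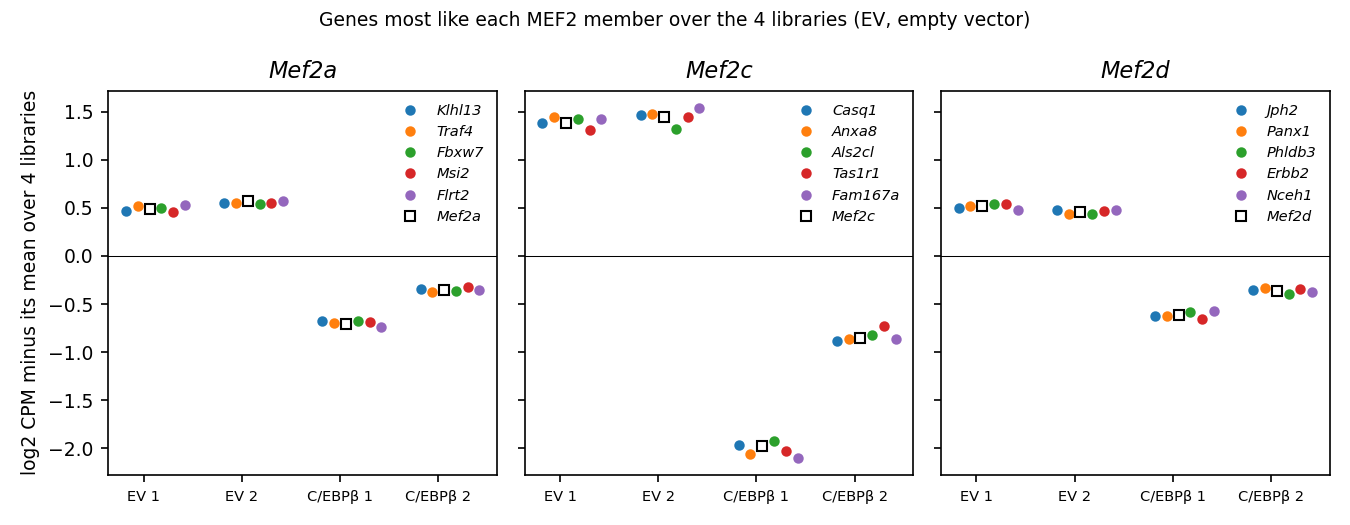
Log2 CPM minus its mean over the 4 libraries for each tested MEF2 gene (open squares) and the 5 genes most like it (filled points). The neighbours of Mef2c reach lower values with C/EBPβ than those of Mef2a and Mef2d, and in all 3 panels overexpressing replicate 1 lies below replicate 2.

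The wider MEF2 pathway was described with lists of partners, cofactors, modifiers and targets. Of 87 genes listed, 85 were tested, and 36 of these fell (42.4%, against 20.9% of all genes) and 15 rose (17.6%, against 22.4%). The median log2 fold change was -0.11 over the pathway and 0.01 over all genes. Of the falls, 21 were among the known targets, whose median was -1.50. The excess of falls over the share of all genes thus lay largely in the target list. By list, 95.5% of tested targets fell. The share was 66.7% for RNA regulators, 50% for restraining kinases, 30% for corepressors and 29.4% for activating kinases. It was 28.6% for bHLH partners, 16.7% for coactivators, and 0% for calcineurin genes and for the MADS-box list. Myog, Hdac9 and Ppargc1a stand in the target list and in another pathway list. The targets Myog, Des and Ckm are also among the muscle markers, so the marker and target falls share genes. All lists were chosen with results of these data known.

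**Figure D5:**
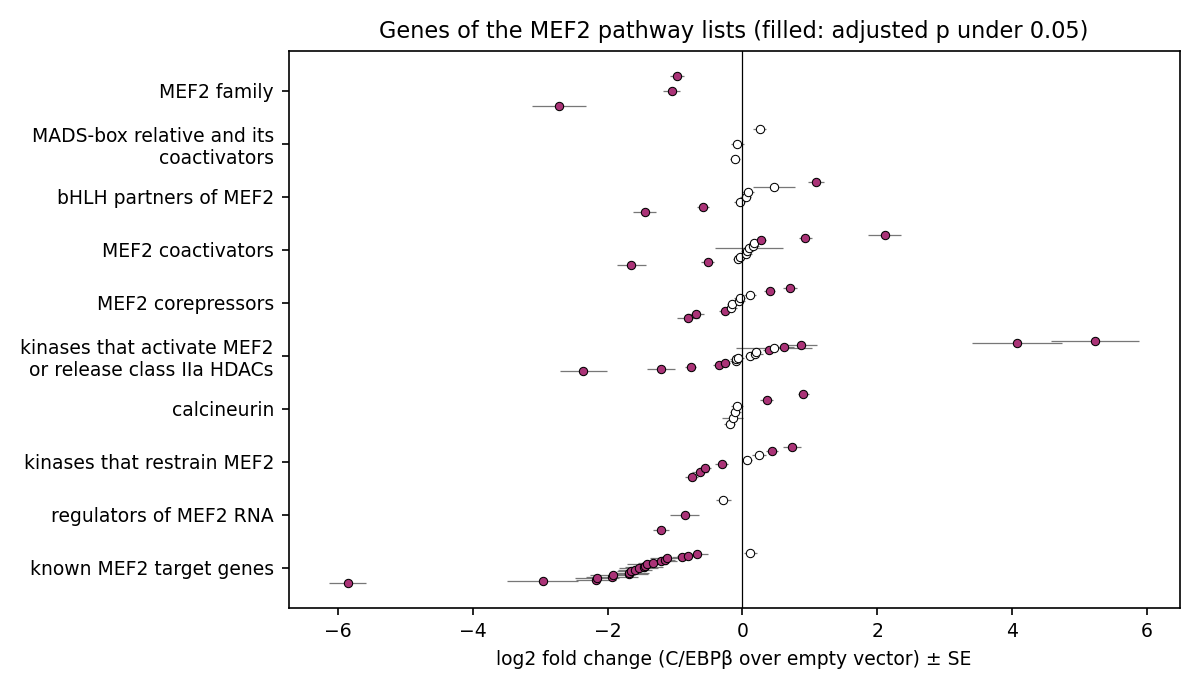
Log2 fold change of each tested gene of the MEF2 family and the 9 pathway lists, where lines are ± SE and filled points passed the threshold of 0.05. All targets but Jun are filled and lie left of 0, whereas the cofactor and kinase lists have filled points on both sides.

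Srf, serum response factor and the MADS-box relative of MEF2, had a log2 fold change of 0.26 and did not pass (adjusted p = 0.0651). Among fits without a replicate block, it passed with library sizes alone (adjusted p = 0.0412) and without overexpressing replicate 2 (0.0103). Its coactivators Mrtfa (-0.07) and Mrtfb (-0.11) did not pass either, and Myocd had 6 fragments in all and was not tested.

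Of the 7 bHLH partners tested, 2 fell and 1 rose, beside 20.9% and 22.4% of all genes, with a median of 0.05. Myog, which drives terminal differentiation, fell by 1.45 on the log2 scale, and Myod1, the determination factor active in this line, fell by 0.59. Myf5, another determination factor, rose by 1.10. The E proteins that dimerise with them stood at -0.04 for Tcf3, 0.05 for Tcf4 and 0.09 for Tcf12, and none passed. Myf6, a late myogenic factor, was near 1 CPM or below in every library and did not pass (0.47, adjusted p = 0.272).

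Of 12 coactivators tested, 3 rose and 2 fell, beside 22.4% and 20.9% of all genes, and the median was 0.08. The largest rise was that of Nfatc4, a calcineurin-responsive factor, at 7.67 and 4.57 CPM in the controls and 28.1 and 24.4 CPM with C/EBPβ (log2 fold change 2.11, SE 0.24, adjusted p = 0.00133). Its relative Nfatc1 rose by 0.93, whereas Nfatc3 (-0.06) and the scarce Nfatc2 (0.09) did not pass. Ppargc1a, a coactivator of mitochondrial genes and itself a MEF2 target, fell by 1.65, and the muscle cofactor Vgll2 fell by 0.52. The acetyltransferases Ep300 (-0.03) and Crebbp (0.16) and the methyltransferase Carm1 (0.18) did not pass, nor did Ncoa2 or Maml1. Carm1 was called higher with library sizes alone (adjusted p = 0.0450). Kat2b, a further acetyltransferase, rose by 0.27, but not when control replicate 1 or 2 (adjusted p = 0.0806 and 0.118) or overexpressing replicate 1 (0.119) was left out.

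Of 10 corepressors tested, 2 rose and 3 fell, beside 22.4% and 20.9% of all genes, with a median of -0.10. The class IIa deacetylases moved in different directions. Hdac7 rose by 0.70 on the log2 scale (SE 0.10, adjusted p = 0.00148), Hdac9 fell by 0.81 (SE 0.16, adjusted p = 0.00580), and Hdac4 (0.12) and Hdac5 (-0.16) did not pass. Hdac9, a MEF2 target as well as a repressor, stood at 13.3 and 13.7 CPM in the controls and at 6.51 and 9.03 CPM with C/EBPβ. Hdac3, a class I deacetylase, rose by 0.41, with an adjusted p of 0.0533 when control replicate 2 was left out. Cbx5, a heterochromatin protein, fell by 0.69. Ncor1, Cabin1 and Sirt1 did not pass.

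Kinases that phosphorylate MEF2 or release class IIa deacetylases moved both ways, 5 up and 5 down of 17 tested, with a median of 0.11. Over all genes tested 22.4% rose and 20.9% fell, so calls in both directions do not set this list apart. Camk2a, a calcium and calmodulin-dependent kinase whose locus also encodes a muscle anchoring protein, fell from 95.2 and 100.8 CPM to 12.9 and 25.6 CPM. Its log2 fold change was -2.36 (SE 0.35, adjusted p = 0.00797), and overexpressing replicate 2 was again the higher of its group. Camk2b fell by 1.21 and the p38 kinase Mapk12 by 0.77. Protein kinase D genes rose, Prkd1 from about 0.1 CPM by 4.07 on the log2 scale and Prkd2 by 0.62, while Prkd3 did not pass. Mapk13, another p38 gene, had 2 fragments in both controls together and 80 with C/EBPβ, a ratio of 42.9 (95% counting interval 11.5 to 360.0). That interval leaves out the spread between libraries. In the edgeR fit the log2 fold change of Mapk13 was 5.23 (95% confidence interval 3.74 to 6.72). The smaller calls were Mapk11 (-0.34) and Camk2d (-0.26), lower, and Map2k6 (0.87) and Camk1 (0.39), higher. Without control replicate 1 the calls of Mapk11, Map2k6, Camk2a and Camk2d were lost (adjusted p from 0.0738 to 0.0941). Without control replicate 2, 7 of the 10 were lost (0.0566 to 0.134), and Mapk12, Mapk13 and Camk2b kept theirs. Without overexpressing replicate 1, Mapk11, Map2k6 and Camk2d were lost (0.113 to 0.136), and Camk2d was lost with library sizes alone (0.0587). Mapk14, a p38 gene that did not pass (0.21, adjusted p = 0.0559), was called higher with library sizes alone (0.0248) and with a filter at 1 CPM (0.0455).

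Of 6 calcineurin genes tested, 2 rose and none fell, beside 22.4% and 20.9% of all genes, with a median of -0.09. Ppp3ca, a catalytic subunit, rose from 189 and 185 CPM to 356 and 344 CPM (log2 fold change 0.90, SE 0.086, adjusted p = 0.000198), with little spread in either group. Ppp3cc, a further catalytic subunit, rose by 0.36, and its adjusted p was 0.0628 with control replicate 1 left out and 0.0927 with replicate 2 left out. Ppp3cb (-0.11), the regulatory subunit Ppp3r1 (-0.07) and the inhibitors Rcan1 (-0.19) and Rcan2 (-0.14) did not pass. Rcan2 was called lower without overexpressing replicate 1 (adjusted p = 0.0167).

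Of 8 further genes, listed as kinases that restrain MEF2, 4 fell and 2 rose, with a median of -0.12. The shares over all genes were 20.9% and 22.4%. The salt-inducible kinases in this list are also known for phosphorylating class IIa deacetylases, which relieves repression of MEF2. They differed in direction: Sik1 fell by 0.75 on the log2 scale, whereas Sik2 rose by 0.74 and Sik3 by 0.44. Cdk5r1, the activator of Cdk5, fell by 0.63, Dyrk1a by 0.55 and the protein kinase A subunit Prkaca by 0.31. The Prkaca call was lost when control replicate 1 (adjusted p = 0.129), control replicate 2 (0.117) or overexpressing replicate 1 (0.0583) was left out, and that of Sik3 when control replicate 2 was (0.0570). Prkacb (0.07) and Cdk5 (0.25) did not pass, although Cdk5 was called higher without overexpressing replicate 2 (0.00711).

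Of the 3 regulators of MEF2 RNA, 2 fell, beside 20.9% of all genes, with a median of -0.86. Gm28653, the locus of linc-MD1, a muscle noncoding RNA known to sponge microRNAs that target Mef2c, fell from 283 and 232 CPM to 106 and 117 CPM (log2 fold change -1.21, SE 0.12, adjusted p = 0.000202). Rbfox1, a splicing factor that acts on Mef2 transcripts, fell by 0.86, with adjusted p of 0.0691 and 0.133 when control replicates 1 and 2 were left out in turn. Rbfox2 did not pass (-0.28, adjusted p = 0.0672), but it was called lower with DESeq2 (0.0253), with no low-count filter (0.0367) and without overexpressing replicate 2 (0.00752). Counts per gene hold no information on the alternative exons of Mef2 transcripts.

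Known MEF2 targets were the list with most calls: 21 of 22 tested fell and none rose, with a median of -1.50. Many of these genes are also general markers of muscle differentiation, and the list was chosen with results of these data known, so its direction is not independent evidence about MEF2. The fall was largest for Myl2, a slow and cardiac myosin light chain, at 6.35 and 7.00 CPM in the controls and 0.0957 and 0.137 CPM with C/EBPβ (log2 fold change -5.85, SE 0.28, adjusted p = 8.93e-06). Mb, which encodes myoglobin, fell from 189 and 205 CPM to 13.3 and 37.6 CPM (log2 fold change -2.96, SE 0.53, adjusted p = 0.0140).

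Other structural targets followed with smaller changes. Xirp2 and Xirp1, actin-binding repeat proteins, had log2 fold changes of -2.17 and -1.46, the Z-disc protein Myoz2, which binds calcineurin, of -2.16, and Smpx of -1.93. They were -1.60 for the thin filament nucleator Lmod3, -1.54 and -1.15 for the M-band proteins Myom1 and Myom2, and -0.89 for desmin (Des). Among enzymes and regulators, the log2 fold change was -1.93 for the muscle creatine kinase Ckm, -1.69 for Klhl31, -1.68 for Itgb1bp2 and -1.42 for the calcium-binding protein Hrc. It was -1.33 for the kinase Srpk3 and -1.20 for the methyltransferase Smyd1. Slc2a4, the insulin-responsive glucose transporter, fell by 1.12, and Nr4a1, a MEF2 target known from neurons and T cells, fell by 0.68. Jun, a target known from growth factor signalling, had a log2 fold change of 0.11 and did not pass (adjusted p = 0.375). Meg3 had 1 fragment in all and was not tested.

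The targets were not equally secure. Without control replicate 1 or without control replicate 2, Myog, Des, Myom2, Myl2, Xirp2, Hdac9 and Ppargc1a kept their calls and the other 14 lost theirs, with adjusted p from 0.0520 to 0.139 and from 0.0563 to 0.208. Without the low-count filter 15 of the 21 were called, and Ckm, Mb, Myom1, Hrc, Xirp1 and Smpx were not (0.0514 to 0.0958). As with Mef2c, overexpressing replicate 2 had the higher level of its group for 20 of 22 targets. The median log2 difference from replicate 1 was 0.76 over the targets. Over all genes tested it was -0.0015, with 7902 of 15886 higher in replicate 2. In 21 of 22 targets both overexpressing libraries lay below both controls, against 36.7% of all genes tested.

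Markers of other cells that are known for a MEF2 member or could lie in a culture ranged widely in level. Endothelial markers, which often accompany Mef2c, summed to 0.831 CPM or less in every library, and Tie1 and Emcn had no fragment. Macrophage markers summed to 3.43 and 3.12 CPM in the controls and 32.7 and 30.3 CPM with C/EBPβ. Of 4 macrophage genes tested Lyz2 and Csf1r rose and Itgam fell, and Adgre1 had no fragment. Lyz2 alone stood at 28.4 and 26.1 CPM with C/EBPβ. Neuron markers summed to 59.3 and 64.5 CPM in the controls and 21.7 and 21.5 CPM with C/EBPβ, and Tubb3, Map2 and Nefl fell, while Rbfox3 and Snap25 had no fragment. Fibro-adipogenic progenitor markers summed to 556 and 501 CPM in the controls and 707 and 564 CPM with C/EBPβ, with 2 of 6 higher and 2 lower. That sum is mostly Dcn and Ly6a, which did not pass. Pdgfra, a growth factor receptor, rose from 15.5 and 8.42 CPM to 92.1 and 79.1 CPM, and the matrix protein Dpt rose 5.03-fold. Lum, a small proteoglycan, fell 2.95-fold, and Cd34 also fell. Whether any of these bears on the MEF2 genes was not tested.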

How the data were processed

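Fragments per gene were deposited as raw counts. Per the file headers they were made with featureCounts 1.5.1 on paired, stranded reads with the GENCODE M12 annotation; the submitters' processing notes name HISAT2 2.0.4, featureCounts 1.4.6, GRCm38 and DESeq2. The authors' deposited table gives mean normalised signal, log2 fold changes with errors, a test score and p-values per gene; it was used only where named. Symbols came from GENCODE M21.

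The MEF2 members and the gene lists were chosen with earlier results of these data known. Counts were scaled by TMM, filtered with filterByExpr (minimum 10, total 15) and tested in edgeR 4.0.16 (R 4.3.3; robust quasi-likelihood, 2-sided) over all 15886 genes, p adjusted by Benjamini-Hochberg, threshold 0.05. The common biological coefficient of variation was 9.42%. Confidence intervals of log2 fold changes cover the spread between libraries, whereas the counting interval of Mapk13 does not. No value was tested by permutation and no list was tested as a set.

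Replicates of a group differed beyond sampling noise (chi-square per degree of freedom 18.2 for the controls and 25.9 with C/EBPβ over genes), so none was treated as a duplicate. Alternatives were DESeq2 1.42.0, limma 3.58.1 (voom), other scalings and filters, no robust estimation, a replicate block and each library left out; edgeR's older quasi-likelihood was added after seeing the data.

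Genes named are the members, Cebpb, up to 6 genes of smallest p per list, any tested bHLH partner, coactivator, corepressor or target, and the 5 genes most like each tested member (mean of at least 10 CPM). Borcs8, Lysmd4, 1700113A16Rik, the marker genes and the remaining kinases were named after their values were seen. Some listed genes enter the list counts but are not reported here by name.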

Additional observations from a re-analysis of the deposited data

How the results depend on the processing

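The number of genes called ranged from 4013 to 7541 when one library was left out, from 1855 to 3746 for lower genes and from 2158 to 3795 for higher genes. The log2 fold change of Mef2c ranged from -3.40 to -2.26. Over the same fits the number of calls ranged from 0 to 1 for higher MADS-box relatives, 1 to 2 for higher corepressors, 1 to 5 for higher and 2 to 5 for lower activating kinases, 1 to 2 for higher and 0 to 1 for lower calcineurin genes, 1 to 3 for higher restraining kinases, 1 to 3 for lower RNA regulators and 7 to 21 for lower targets. In these fits the lone library of a group is assumed to vary like the others. With library sizes alone and with the replicate block, 1 MADS-box relative (Srf) was called higher. The cause was not tested.

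Other tools called 5979 (DESeq2) and 6886 (limma-voom) genes, and no result reversed. With the longest transcript as length, the family shares in the controls and with C/EBPβ were 47.2% and 50.6% for Mef2a, 13.0% and 4.26% for Mef2c and 39.8% and 45.1% for Mef2d, which puts Mef2a before Mef2d. The labels do not say that replicate numbers pair the libraries, and deviations of same-numbered libraries correlated at 0.206 over 12657 genes. With the replicate block 7599 genes were called, and Mef2a, Mef2c and Mef2d had log2 fold changes of -1.06, -2.81 and -0.98, with the calls of all 3 kept. Among pathway genes the block added calls for Srf, Mapk14 and Cdk5, all higher (adjusted p = 0.0182, 0.0393 and 0.0227). Myocd and Meg3 had too few fragments to be tested, 6 and 1 over the 4 libraries together, and Mef2b is limited by exons it shares with Borcs8.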
